A study of Caenorhabditis elegans with 54 samples.

Results

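The fbxa genes form the F-box A family of the nematode Caenorhabditis elegans. They were taken as every name in the deposited gene tables whose WormBase symbol is fbxa- followed by digits, in both assays and all strains. This gave 222 of 46005 names. The RefSeq gene table types 170 of them as protein coding and 52 as pseudogenes. By the gene order given there, 135 members stand in 41 runs of 2 or more neighbouring fbxa genes, the longest run holds 10, and the other 87 stand alone.

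F-box proteins are the substrate-binding subunits of SCF ubiquitin ligases, in which a Skp1-related adaptor (SKR proteins in worms) joins the F-box to a cullin. Nematodes carry several greatly expanded F-box families, fbxa, fbxb and fbxc among them, and most members have no described function. Many worm genes are also templates for secondary small interfering RNAs, the 22G-RNAs, which RNA-dependent RNA polymerases copy from mRNA and Argonaute proteins use to silence it. MUT-16 is the scaffold of the perinuclear Mutator foci where much of this copying takes place. ERGO-1 is an Argonaute that binds primary 26G-RNAs in oocytes and embryos and acts upstream of a class of 22G-RNAs. The ERI-6/7 helicase is needed for that class. PRG-1 is the Piwi Argonaute that binds piRNAs, and HRDE-1 is a nuclear germline Argonaute that carries inherited silencing.

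The libraries were made from whole day 1 adults, about 8000 animals each, and form 2 sets. In the first set, only small RNA was sequenced, from ergo-1(tm1860) and prg-1(n4357) animals. For these the labels give both 68 h at 20 °C and 48 h at 25 °C without saying which library had which, so growth may have differed between the 2 strains. The second set gave small RNA and mRNA from 8 strains grown at 20 °C for 64 h. They include deletions at eri-6[e-f] (cmp261), at sosi-1 (cmp262) and at both (cmp263), each with and without the mutation mut-16(pk710), which disrupts mut-16. The remaining 2 strains are prg-1(n4357) with ergo-1(tm1860), called the ergo-1 double mutant here, and prg-1(n4357) with hrde-1(tm1200), called the hrde-1 double mutant. Each strain had 3 libraries per assay, 54 in all, and the labels do not say whether these were separate cultures, so a p-value measures the spread between libraries. Neither a wild type nor a mut-16 single mutant was analysed here, so each mut-16 effect is that of mut-16 on top of a deletion, and the 2 double mutants both lack prg-1. These 2 are compared only with each other, and neither is a control.

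Small RNA libraries held 10940000 to 14730000 counts in the first set and 8000000 to 42010000 in the second, and mRNA libraries held 13220000 to 93980000. Values below are counts-per-million (CPM) values of a library scaled by trimmed mean of M values (TMM). A gene was called changed at a Benjamini-Hochberg adjusted p under 0.05 in edgeR's quasi-likelihood test, fitted over all genes of an assay and set, together with a difference of at least 2-fold. Fold changes are given as log2 with their standard error (SE). The small RNA tables hold 1 value per gene and do not separate strand or length within the 18 to 30 nt size selection. The mRNA of sosi-1 was at 0 in all 4 strains labelled with its deletion, and the mRNAs of mut-16, prg-1 and hrde-1 were still detected in their mutants. The first set names 221 of the 222 members and lacks fbxa-205. A low-count filter left 171 members in small RNA and 149 in mRNA of the second set, and 117 in small RNA of the first. The others, 51, 73 and 104 members in the same order, were too low to test. Of those, 4 had no count in any mRNA library and 4 had none in the first set, while every member had some small RNA count in the second.

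Small RNA on the fbxa family as a whole was several times lower in the strains with the mut-16 mutation than in those without it. The members summed to 1476 ± 43 CPM with the mut-16 mutation and 10340 ± 237 CPM without it in eri-6[e-f] animals (SD, n = 3 each). They summed to 1568 ± 13.7 CPM with the mut-16 mutation and 9689 ± 204 CPM without it in sosi-1 animals. In animals with both deletions the sums were 1466 ± 6.89 CPM with the mut-16 mutation and 10080 ± 70.7 CPM without it. All 9 libraries with the mut-16 mutation lay between 1451 and 1584 CPM, and all 9 without it between 9503 and 10590 CPM, so the sums were far apart in every background. In these bulk samples of whole animals, fewer cells of a type and less RNA per cell cannot be told apart. As a share of all small RNA counts, the family took 0.165% to 0.187% with the mut-16 mutation and 1.01% to 1.11% without it.

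The summed small RNA of the ergo-1 double mutant was 4526 ± 195 CPM, against 3671 ± 385 CPM in the hrde-1 double mutant, with no overlap between their libraries. In the first set it was 8368 ± 252 CPM in ergo-1 and 4255 ± 65.4 CPM in prg-1. The mRNA sums moved far less, and in opposite directions between backgrounds. They lay between 943.1 and 1052 CPM with the mut-16 mutation and between 1098 and 1491 CPM without it in eri-6[e-f] animals. In sosi-1 animals they lay between 899.2 and 1109 CPM with the mutation and between 783.5 and 892.9 CPM without it, and with both deletions between 826.4 and 843.6 CPM with it and between 1026 and 1276 CPM without it. The libraries did not overlap within a background, and did when pooled over the 3.

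**Figure D1:**
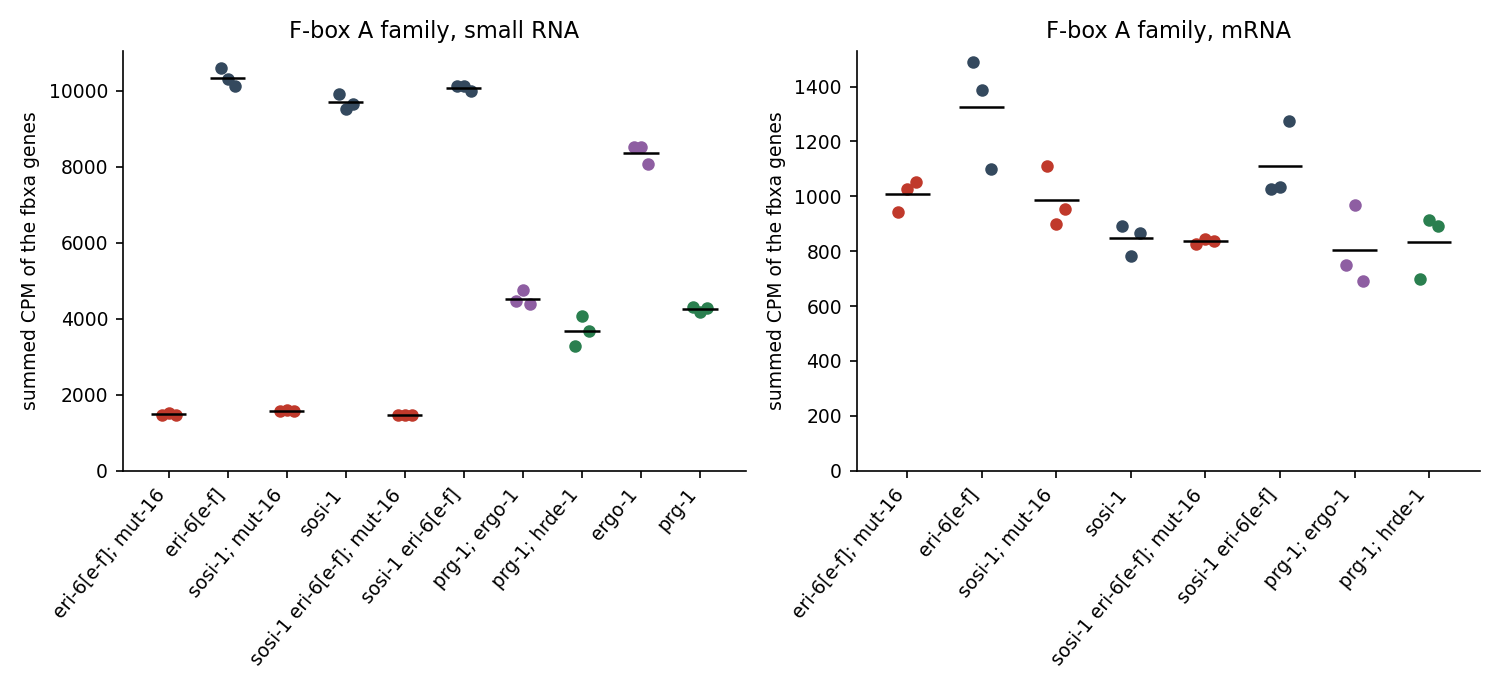
Summed CPM of the 222 fbxa names (221 in the first set) in each library, for small RNA in 10 strains and mRNA in 8 strains. Points are libraries and the short line is the mean of 3. Small RNA sums with the mut-16 mutation lie between 1451 and 1584 CPM and those of the matching strains without it between 9503 and 10590 CPM, while the mRNA sums with the mutation are lower in 2 backgrounds and higher in sosi-1 animals.

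A few members carried most of this small RNA, and different ones in different strains. These are shares of counts, not levels per gene length. The top 10 members held 77.4% of the family sum in eri-6[e-f] with the mut-16 mutation, against 67.1% in eri-6[e-f]. fbxa-193 was the highest member in the 3 deletion strains, with 14.9% of the sum in eri-6[e-f], 15.2% in sosi-1 and 14.4% in the strain with both deletions. With the mut-16 mutation the highest member was fbxa-206, at 19.4% in eri-6[e-f] and 18.0% in the strain with both deletions. Of the 222 members, 22 reached 10 CPM in eri-6[e-f] with the mut-16 mutation, against 69 without it. In the first set the highest members were fbxa-203 in ergo-1, with 13.4% of the sum, and fbxa-149 in prg-1, with 25.4%. fbxa-149 also led in the ergo-1 double mutant, with 27.5%, and fbxa-168, named for this value alone, led in the hrde-1 double mutant, with 25.5%.

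The mut-16 mutation was set against its absence in 3 backgrounds that share no library. Small RNA fell on most fbxa members in each. It was called lower for 136 and higher for 5 of the 171 tested in eri-6[e-f] animals, where 40.8% of all 15380 tested genes were lower and 14.4% higher. In sosi-1 animals 133 members were lower and 8 higher, against 41.8% and 13.9% of all genes. In animals with both deletions 130 were lower and 9 higher, against 38.8% and 12.3% of all genes. The lower counts were 146, 144 and 149 under microRNA scaling, in the same order, but the higher counts were then 0, 0 and 2. In eri-6[e-f] animals the higher count was 8 under upper-quartile scaling and 3 in a fit on these 2 strains alone, and in sosi-1 animals it was 5 without replicate 3 of sosi-1.

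Averaged over the 3 backgrounds, 137 members (80.1%) were lower and 8 (4.68%) higher, against 41.9% and 13.3% of all genes. The median member stood at −3.37 on the log2 scale and the median gene at −0.33. The quartiles of the family were −5.52 and −1.69, and 51 members (29.8%) were at least 32-fold lower, against 9.85% of all genes. In 120 of the 137 members called lower, no library with the mut-16 mutation reached any library without it; these are 70.2% of the members tested, against 35.9% of all genes. In 124 members (72.5%) the fall was called in all 3 backgrounds, against 36.4% of all genes, in 139 (81.3%, against 44.5%) in at least 1, and no member was called in opposite directions. TMM scaling assumes that most genes stay level. Scaled to microRNA counts instead, the median gene stood at −1.54 and the median member at −4.63, 152 members were lower, and 2 rather than 8 were higher. Small RNA on markers of other tissues moved with the mutation as well, with 30 of 32 tested sperm genes higher and 1 lower, and all 8 yolk and intestine genes lower, and their part in the result was not tested.

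**Figure D2:**
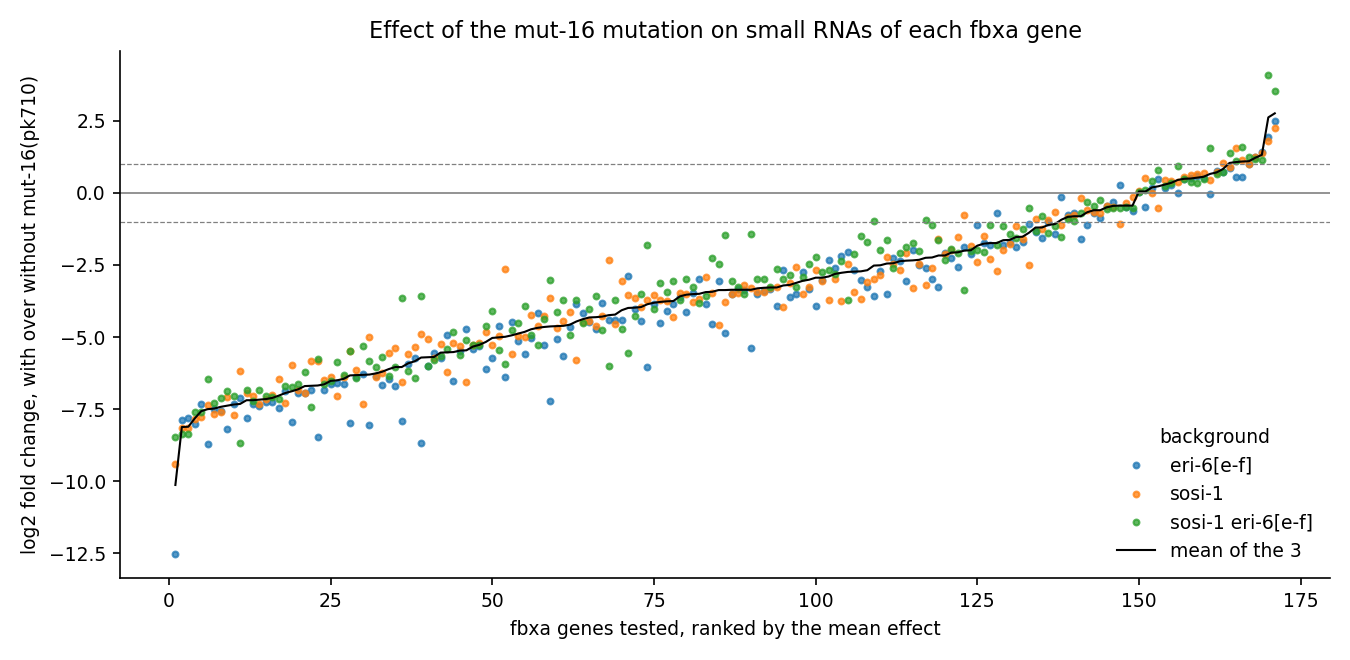
Small RNA log2 fold change, with the mut-16 mutation over without, in 3 backgrounds for the 171 tested fbxa genes ranked by their mean effect (black line); dashed lines mark a 2-fold change. The points of the 3 backgrounds run together from falls of over 32-fold on the left to a few rises on the right, where 8 members are called higher.

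The largest mean fall was that of fbxa-110. It had 0, 0 and 0 CPM with the mut-16 mutation and 37.1, 29.7 and 30.6 CPM without it in eri-6[e-f] animals. In sosi-1 animals it had 0, 0 and 0.0858 CPM with the mut-16 mutation and 27.8, 28.1 and 31.7 CPM without it. In animals with both deletions it had 0, 0.164 and 0.0786 CPM with the mut-16 mutation and 26.4, 26.5 and 23.3 CPM without it. Only 10 counts remained in the 9 libraries with the mut-16 mutation, against 5010 in the 9 without it. The mean log2 fold change was −10.13 ± 0.30 (SE; edgeR adjusted p = 8.53e-18), and in eri-6[e-f] animals, where mut-16 mutant libraries had no count at all, the level was at least 627-fold lower (floor of 3 counts over the group). fbxa-154 was as sparse, with 3 counts in the 9 libraries with the mut-16 mutation and 409 in the 9 without it. Scaled for library size, that is 202 times as much without the mutation, with a 95% counting interval of 69.1 to 979.

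Members with abundant small RNA fell too. fbxa-218 ranged from 1.55 to 4 CPM with the mut-16 mutation and from 582 to 729 CPM without it (log2 −7.82 ± 0.10, SE; edgeR adjusted p = 8.82e-26). fbxa-150 ranged from 1.38 to 2.87 CPM with the mut-16 mutation and from 329 to 380 CPM without it (−7.48 ± 0.11). fbxa-149 ranged from 2.97 to 6.87 CPM with the mut-16 mutation and from 657 to 806 CPM without it (−7.34 ± 0.08). In none of these did a single library with the mut-16 mutation come within reach of one without it. fbxa-193, the highest member in the deletion strains, ranged from 13.7 to 19.3 CPM with the mut-16 mutation and from 1410 to 1590 CPM without it (−6.45 ± 0.10). fbxa-203 ranged from 27.7 to 32.1 CPM with the mut-16 mutation and from 1040 to 1260 CPM without it (−5.33 ± 0.07). Somewhat less abundant but still well-covered members moved as far. fbxa-63 ranged from 0.236 to 0.604 CPM with the mut-16 mutation and from 68.7 to 86.1 CPM without it (−7.57 ± 0.10), and fbxa-139 from 0.212 to 0.616 CPM with the mut-16 mutation and from 56.4 to 65.3 CPM without it (−7.42 ± 0.08). fbxa-204 (−8.11 ± 0.09) and fbxa-205 (−8.12 ± 0.09) had nearly the same counts, with a summed difference of 0.966%, so how the reads are divided between them is uncertain. Values that are not whole numbers, as when reads are divided between names, occurred on other members too. Small RNA values of fbxa-67, fbxa-109, fbxa-117 and fbxa-192 were fractional in 100% of second-set libraries, and fbxa-67 mRNA values in 91.7%. How far divided reads shape their results was not tested.

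Small RNA was higher with the mut-16 mutation on fbxa-30, fbxa-62, fbxa-108, fbxa-135, fbxa-155, fbxa-196, fbxa-202 and fbxa-206. fbxa-206 had 286, 300 and 273 CPM with the mut-16 mutation and 111, 101 and 107 CPM without it in eri-6[e-f] animals. In sosi-1 animals it had 267, 273 and 259 CPM with the mut-16 mutation and 115, 99.5 and 92.1 CPM without it, and in animals with both deletions 260, 267 and 265 CPM with the mut-16 mutation and 123, 118 and 119 CPM without it. The groups did not overlap, and the mean log2 fold change was 1.32 ± 0.05 (SE; edgeR adjusted p = 7.47e-18), but under microRNA scaling it was 0.10 and not called. fbxa-108 (1.22) and fbxa-135 (1.10) stood at 0.00 and −0.12 under that scaling. fbxa-202 ranged from 1.96 to 5.9 CPM with the mut-16 mutation and from 0.2 to 1.2 CPM without it (2.76 ± 0.15), and stayed called under microRNA scaling, at 1.57.

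Coding genes and pseudogenes both lost small RNA. Of 129 tested protein-coding members, 103 were lower and 8 higher, with a median of −3.28. Of 42 tested pseudogenes, 34 were lower and none higher, with a median of −4.03. Runs of neighbours held both alike and mixed members, in a family where 80.1% of the tested members were lower. All 6 of the run fbxa-21, fbxa-61, fbxa-63, fbxa-76, fbxa-77 and fbxa-91 were lower, from −7.57 to −4.68, and so were the 6 tested members of the run of 10 that holds fbxa-28, fbxa-33 to fbxa-37, fbxa-49, fbxa-50, fbxa-75 and fbxa-79. In the run fbxa-108, fbxa-129, fbxa-191, fbxa-192 and fbxa-193, 4 were lower and fbxa-108 was higher. In the run fbxa-122, fbxa-123 and fbxa-124 none was called, and the pairs fbxa-216 and fbxa-217, fbxa-101 and fbxa-140, fbxa-94 and fbxa-95, fbxa-197 and fbxa-198, and fbxa-113 and fbxa-114 each held 1 member called lower and 1 not called. The neighbouring F-box families fell as well, with 91 of 95 fbxb genes lower and none higher (median −4.05), and 30 of 44 fbxc genes lower and 1 higher (median −2.40). Among 25 tested core subunits and adaptors of SCF ligases, 10 were lower and 2 higher (median −0.40).

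The size of the mut-16 effect differed between backgrounds, by a test of the interaction, for 15 members (8.77%), against 9.58% of all genes. Without a low-count filter it was 23 members, and under microRNA scaling 1, with the calls on fbxa-11 and fbxa-61 lost (edgeR adjusted p = 0.235 and 0.611) and that on fbxa-46 kept (0.0245). fbxa-11 was among the well-covered ones. It had 31.5, 34.2 and 34.1 CPM with the mut-16 mutation and 123, 123 and 117 CPM without it in eri-6[e-f] animals (−1.86). In sosi-1 animals it had 44.9, 45 and 46.8 CPM with the mut-16 mutation and 77.8, 78.5 and 78.1 CPM without it, a difference below 2-fold (−0.78). In animals with both deletions it had 14.3, 11.5 and 11.7 CPM with the mut-16 mutation and 132, 124 and 132 CPM without it (−3.36). The largest and smallest of these effects were 2.59 apart on the log2 scale (edgeR adjusted p = 3.68e-14). fbxa-67 showed a smaller spread, at −5.74 in eri-6[e-f] animals, −5.35 in sosi-1 animals and −6.43 with both deletions. fbxa-46 stood at −7.91, −6.57 and −3.66 in the same order, and fbxa-61 at −8.06, −5.01 and −5.83.

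The mRNA of the same strains did not follow in one direction. Averaged over the 3 backgrounds, 14 of the 149 tested members (9.4%) were higher with the mut-16 mutation and 10 (6.71%) lower, shares near the 13.2% and 4.7% of all 15376 tested genes. The median member stood at −0.22 and the median gene at 0.06. Scaled by library size alone, where the median gene stood at 0.32, the split was 17 higher and 2 lower. Markers of other tissues moved with the mut-16 mutation: the summed mRNA of 35 major sperm protein genes ranged from 531.7 to 969.4 CPM with the mut-16 mutation and from 39.01 to 308.5 CPM without it, 8 of these genes being at 0 in some library and none in all. Yolk and intestine markers summed to between 43040 and 53170 CPM with the mut-16 mutation and between 76400 and 108300 CPM without it in eri-6[e-f] animals, and muscle markers to between 583.6 and 1480 CPM with it and between 3164 and 4613 CPM without it. In sosi-1 animals the yolk and intestine sums were 28720 to 32950 CPM with the mutation and 57810 to 72070 CPM without it, and with both deletions they overlapped, at 39090 to 45740 CPM with it and 44540 to 52850 CPM without it. Muscle sums overlapped in sosi-1 animals, at 681.1 to 1386 CPM with the mutation and 610 to 1689 CPM without it. With both deletions muscle sums were lower with it, at 647.6 to 775.7 CPM against 1556 to 1925 CPM. Oocyte markers summed to between 5648 and 10560 CPM with the mutation and between 3267 and 4179 CPM without it in eri-6[e-f] animals. In sosi-1 animals they were lower with it, at 3187 to 5374 CPM against 6451 to 9299 CPM. With both deletions they were higher with it, at 8391 to 9353 CPM against 4916 to 6264 CPM. Germline markers moved the same way, and neither list overlapped within a background. In each background both moved opposite to the summed fbxa mRNA. The part of these shifts in the fbxa results was not tested.

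Of the members with more mRNA, fbxa-192 had the largest well-covered increase. It had 25.3, 13.6 and 23.6 CPM with the mut-16 mutation and 1.57, 1.3 and 1.37 CPM without it in eri-6[e-f] animals. In sosi-1 animals it had 26.4, 23.4 and 24 CPM with the mut-16 mutation and 1.55, 1.98 and 2.35 CPM without it. In animals with both deletions it had 26.4, 27.5 and 25.5 CPM with the mut-16 mutation and 2.61, 3.04 and 2.6 CPM without it. The level was thus higher in every mut-16 mutant library than in any without it, by a mean log2 of 3.60 ± 0.13 (SE; edgeR adjusted p = 2e-17). Its small RNA went the other way. It had 47.6, 56.8 and 53.7 CPM with the mut-16 mutation and 195, 190 and 199 CPM without it in eri-6[e-f] animals, and its mean log2 fold change was −1.53 ± 0.03.

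fbxa-11 mRNA was 35.7, 32.8 and 39.4 CPM with the mut-16 mutation and 3.33, 3.8 and 2.66 CPM without it in eri-6[e-f] animals (3.46 ± 0.22). In sosi-1 animals it was 35.7, 29.6 and 31.7 CPM with the mut-16 mutation and 2.25, 2.25 and 2.44 CPM without it (3.81 ± 0.21). In animals with both deletions it was 10.9, 11.7 and 11.7 CPM with the mut-16 mutation and 2.93, 3.06 and 3.99 CPM without it (1.80 ± 0.20). The increase was called in each background and was smaller with both deletions than in sosi-1 animals, by 2.0 on the log2 scale (edgeR adjusted p of the interaction = 1.1e-05). That background is also where its small RNA was lowest with the mut-16 mutation.

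fbxa-191 mRNA ranged from 1.66 to 4.39 CPM with the mut-16 mutation and from 0.564 to 1.09 CPM without it (2.22 ± 0.17). fbxa-193 mRNA ranged from 3.47 to 6.22 CPM with the mut-16 mutation and from 1.35 to 2.66 CPM without it (1.11 ± 0.12). fbxa-67 had 16, 17.9 and 19.4 CPM with the mut-16 mutation and 9.87, 8.81 and 5.96 CPM without it in eri-6[e-f] animals. Its libraries separated within each background but overlapped across the pooled 9 against 9, and its mean was 1.35 ± 0.12. fbxa-10, a neighbour of fbxa-11 and fbxa-67, averaged 1.96 ± 0.16 but missed 2-fold with both deletions, at 0.92. Other less abundant members also passed: fbxa-224 (3.61 ± 0.27), fbxa-139 (2.63 ± 0.30) and fbxa-118 (1.82 ± 0.25). fbxa-194 held 96 counts in the 9 libraries with the mut-16 mutation and 5 in the 9 without it. In all, 11 members (7.38%) were called higher in all 3 backgrounds, against 5.23% of all genes.

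The falls in mRNA were smaller. fbxa-121 ranged from 0.174 to 0.876 CPM with the mut-16 mutation and from 1.08 to 3.9 CPM without it (−2.54 ± 0.20, SE; edgeR adjusted p = 1e-10). fbxa-13 ranged from 1.31 to 2.1 CPM with the mut-16 mutation and from 3.14 to 7.99 CPM without it (−1.59 ± 0.16). Both were lower in every mut-16 mutant library than in any without it. With fbxa-169 they are the 3 members (2.01%) called lower in all 3 backgrounds, against 0.741% of all genes. fbxa-93 (−1.21 ± 0.12) and fbxa-149 (−1.06 ± 0.11) were called too, but stood at −0.95 and −0.80, below 2-fold, when scaled by library size alone. fbxa-215, the member with the largest share of the family's mRNA in every strain, ranged from 100 to 299 CPM over all libraries of the second set, and its mean mut-16 effect of −0.11 ± 0.11 was not called.

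Single backgrounds gave different mRNA counts. In eri-6[e-f] animals 46 members (30.9%) were lower and 14 (9.4%) higher with the mut-16 mutation, against 9.48% and 16.2% of all genes. Without replicate 1 of eri-6[e-f] the lower count there was 29, and a fit on these 2 strains alone gave 7 higher. In sosi-1 animals 6 (4.03%) were lower and 18 (12.1%) higher, against 3.24% and 10.4% of all genes. Upper-quartile scaling gave 2 lower and 26 higher there, and the lower count was 3 without replicate 1 of sosi-1 or without replicate 2 of sosi-1 with the mut-16 mutation. With both deletions 27 (18.1%) were lower and 29 (19.5%) higher, against 22.1% and 28.1% of all genes. Scaled by library size alone, 9 were lower and 47 higher, and without replicate 3 of the strain with both deletions 14 were lower.

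The interaction was called for 71 of the 149 members (47.7%), against 60.1% of all genes. fbxa-21, fbxa-55, fbxa-162, fbxa-182, fbxa-187 and fbxa-189 (4.03%) were called in opposite directions in different backgrounds, against 2.69% of all genes. fbxa-182 mRNA was 3.32, 4.29 and 2.57 CPM with the mut-16 mutation and 12, 9.81 and 5.08 CPM without it in eri-6[e-f] animals (−1.39 ± 0.29). It had 3.93, 3.52 and 4.03 CPM with the mut-16 mutation and 1.56, 2 and 2.24 CPM without it in animals with both deletions (1.01 ± 0.29). That increase fell below 2-fold without replicate 1 of the strain with both deletions (0.86), or without replicate 1 (0.99) or 3 (0.97) of the same strain with the mut-16 mutation.

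Less small RNA went with more mRNA in some members only. Of the 137 members with less small RNA averaged over the 3 backgrounds, 11 had more mRNA with the mut-16 mutation, 9 had less, 88 were not called in mRNA and 29 were not tested there. The 11 are 10.2% and the 9 are 8.33% of the 108 tested, near the 9.74% and 7.65% among all genes with less small RNA. The 11 were fbxa-10, fbxa-11, fbxa-67, fbxa-117, fbxa-118, fbxa-139, fbxa-191, fbxa-192, fbxa-193, fbxa-194 and fbxa-224. Of the 8 members with more small RNA, fbxa-155, fbxa-196 and fbxa-202 had more mRNA as well. Over the 136 members tested in both assays, the correlation of the 2 fold changes was r = 0.06 and rho = 0.06. This is a description over genes, which are not independent replicates, from animals of the same strains.

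**Figure D3:**
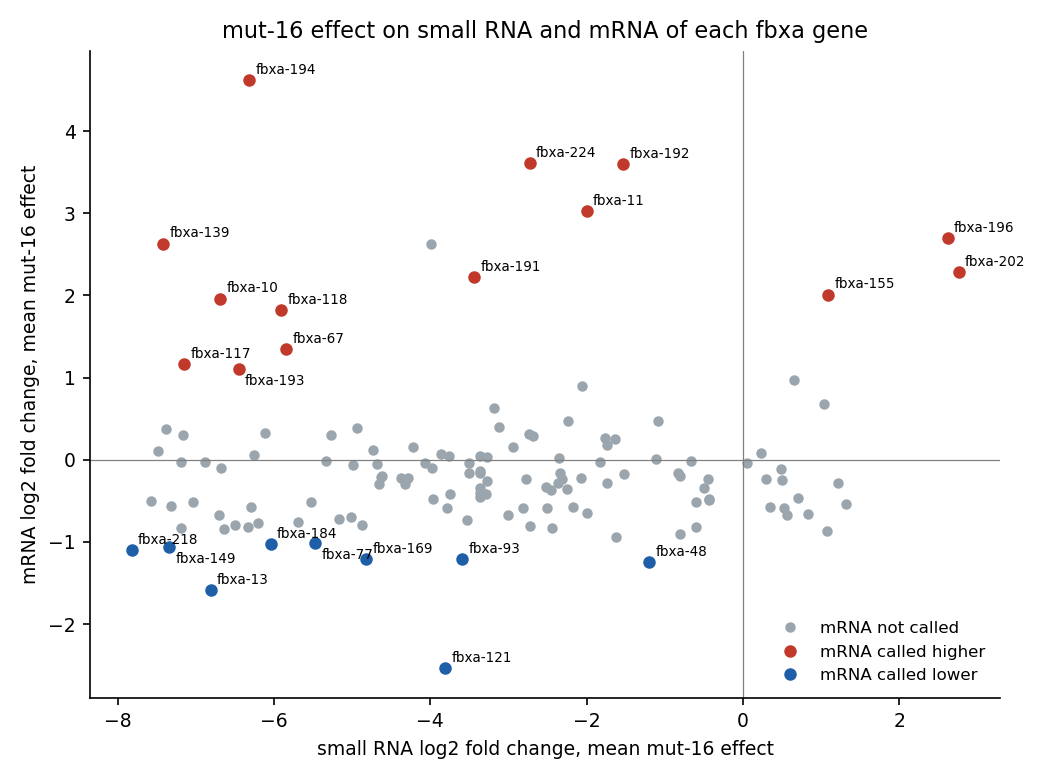
Mean mut-16 effect on small RNA (horizontal, log2) against that on mRNA (vertical, log2) for 136 fbxa genes tested in both assays; coloured points are members whose mRNA was called higher (red) or lower (blue). Most points lie left of 0 and near 0 on the vertical axis, and r is 0.06.

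Some of the members with more mRNA are neighbours, while fbxa-139, fbxa-155, fbxa-196, fbxa-202 and fbxa-224 stand in no run. In the run fbxa-10, fbxa-11, fbxa-23 and fbxa-67 all 4 had less small RNA, and the 3 tested in mRNA were higher, by 1.35 to 3.03. In the run fbxa-108, fbxa-129, fbxa-191, fbxa-192 and fbxa-193, 3 of the 5 were higher in mRNA. fbxa-118 and its neighbour fbxa-194 were both lower in small RNA and higher in mRNA. fbxa-109 and fbxa-117 were lower in small RNA, and the 1 of them tested in mRNA, fbxa-117, was higher on average (1.16 ± 0.17) but not with both deletions (0.18).

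**Figure D4:**
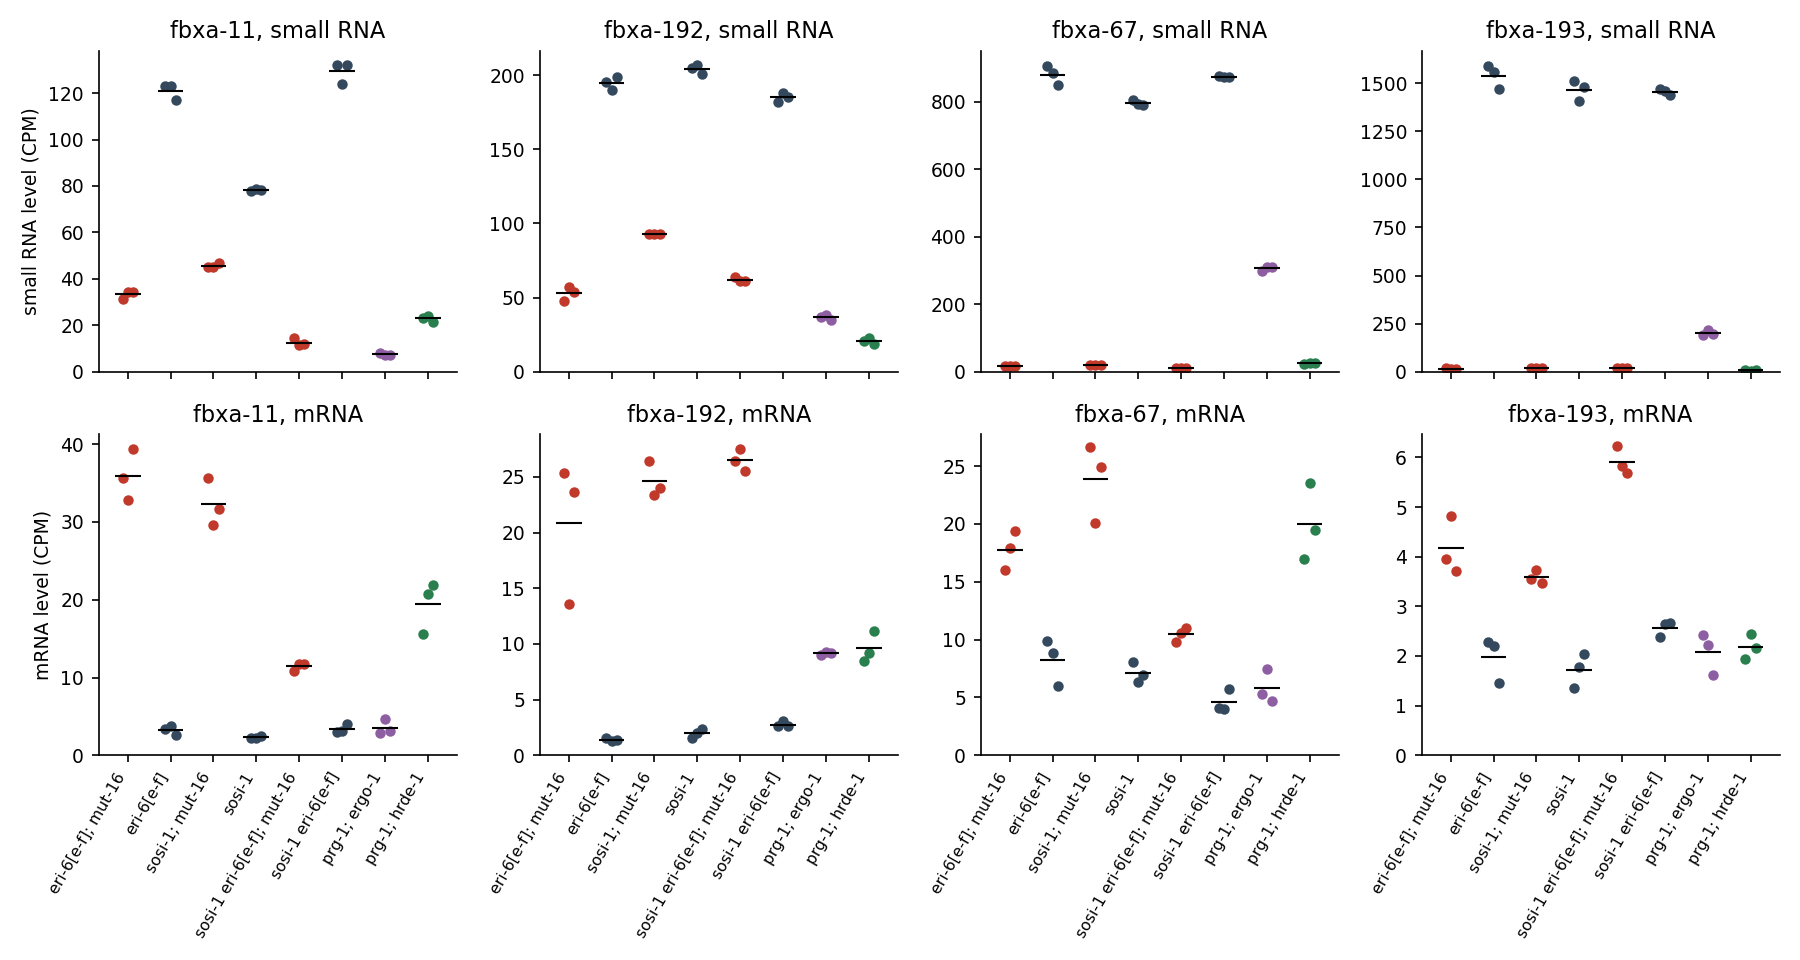
Small RNA (top) and mRNA (bottom) in CPM for fbxa-11, fbxa-192, fbxa-67 and fbxa-193 in each library of the 8 strains of the second set. All 4 come from the 11 members called lower in small RNA and higher in mRNA, so the choice fixed the pattern shown. With the mut-16 mutation, each of the 4 has less small RNA and more mRNA than the same deletion without it, for example 13.7 to 19.3 against 1410 to 1590 CPM of small RNA on fbxa-193.

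Small RNA on the family was next compared between Argonaute mutants. In the first set, ergo-1 was set against prg-1. It was called higher in ergo-1 for 74 (63.2%) and lower for 19 (16.2%) of the 117 tested members, against 30.4% and 15.6% of all 11746 tested genes. The median member stood at 2.12 and the median gene at 0.04. The other F-box families differed the same way, with 58 of 63 fbxb genes higher and 1 lower (median 4.34) and 20 of 29 fbxc genes higher and 1 lower (median 2.57). Over the scalings tried, 69 to 79 members were higher and 16 to 19 lower. Small RNA on markers of other tissues differed as well. Sperm genes summed to between 25.46 and 32.84 CPM in ergo-1 and between 110.2 and 127.4 CPM in prg-1, and muscle genes to between 7.278 and 9.881 CPM in ergo-1 and between 0.4556 and 0.9725 CPM in prg-1. Their part in the result was not tested.

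fbxa-203 had 1070, 1200 and 1100 CPM in ergo-1, against 5.2, 5.16 and 8.31 CPM in prg-1 (log2 7.49 ± 0.14, SE; edgeR adjusted p = 4.58e-14). fbxa-218 had 696, 626 and 593 CPM in ergo-1, against 3.87, 3.72 and 3.71 CPM in prg-1 (7.40 ± 0.10). fbxa-150 had 501, 461 and 418 CPM in ergo-1, against 1.83, 1.97 and 1.94 CPM in prg-1 (7.89 ± 0.12). These are among the members whose small RNA was far lower with the mut-16 mutation. Each differed by more than 100-fold between ergo-1 and prg-1, with no overlap. fbxa-110 had 62.1, 61.7 and 52.8 CPM in ergo-1, against 0.408, 2.89 and 0.707 CPM in prg-1 (5.34 ± 0.28). fbxa-111 had 9.74, 10.6 and 11.1 CPM in ergo-1 and no count in prg-1, so it was at least 120-fold higher.

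The members lower in ergo-1 included some with the reverse contrast of like size. fbxa-52 had 0.436, 0.618 and 0.611 CPM in ergo-1, against 167, 138 and 150 CPM in prg-1 (−8.06 ± 0.14, SE; edgeR adjusted p = 3.28e-14). fbxa-24 had 0.654, 0.343 and 0.427 CPM in ergo-1, against 98.5, 85.6 and 81.1 CPM in prg-1 (−7.53 ± 0.16). fbxa-46 (−5.58 ± 0.28) and fbxa-61 (−5.47 ± 0.16) were lower as well. fbxa-193 had 219, 216 and 211 CPM in ergo-1, against 585, 554 and 708 CPM in prg-1 (−1.52 ± 0.08). The family thus holds members with nearly all of their small RNA in one of these mutants and little in the other. In the libraries of the second set, 17 of the 19 lower members (89.5%) and 68 of the 74 higher ones (91.9%) were lower with the mut-16 mutation averaged over the 3 backgrounds. Both are near the 82.1% of all 117 members. Over all genes these shares were 25.6% of the lower and 88.1% of the higher ones.

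In the second set, the ergo-1 double mutant was set against the hrde-1 double mutant. Small RNA was lower for 37 members (21.6%) and higher for 32 (18.7%), against 16.9% and 6.7% of all genes, and the median member stood at −0.23 and the median gene at −0.03. This split depended on the scaling. With microRNA counts as the basis, the median gene stood at 1.14, and 14 members were lower and 53 higher.

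fbxa-52 had 1.65, 1.37 and 0.898 CPM in the ergo-1 double mutant, against 362, 419 and 391 CPM in the hrde-1 double mutant (−8.29 ± 0.18, SE; edgeR adjusted p = 2.5e-20). fbxa-10 had 1.77, 2.58 and 1.95 CPM in the ergo-1 double mutant, against 429, 535 and 459 CPM in the hrde-1 double mutant (−7.92 ± 0.12). fbxa-24 had 0.659, 0.172 and 1.58 CPM in the ergo-1 double mutant, against 91, 119 and 137 CPM in the hrde-1 double mutant (−6.76 ± 0.27). In all 3 the libraries were far apart. Other members were as strongly higher. fbxa-109 had 107, 119 and 114 CPM in the ergo-1 double mutant, against 1.48, 0.778 and 1.02 CPM in the hrde-1 double mutant (6.75 ± 0.15). fbxa-193 had 189, 219 and 197 CPM in the ergo-1 double mutant, against 7.49, 3.33 and 9.14 CPM in the hrde-1 double mutant (5.05 ± 0.19). fbxa-115 had 57.7, 66.5 and 63 CPM in the ergo-1 double mutant, against 2.26, 1.3 and 1.24 CPM in the hrde-1 double mutant (5.28 ± 0.15). fbxa-149, the highest member of the ergo-1 double mutant, had 1230, 1310 and 1180 CPM there, against 56.6, 59.4 and 63.8 CPM in the hrde-1 double mutant (4.38 ± 0.11). The hrde-1 double mutant includes the library least like its replicates, replicate 1, at a correlation of 0.964.

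The sets share no library, but the strain that ergo-1 is set against differs between them, being prg-1 in the first and the hrde-1 double mutant in the second. Of the 19 members lower in ergo-1 than in prg-1, 12 (63.2%) were also lower in the ergo-1 double mutant and 3 (15.8%) higher, namely fbxa-113, fbxa-129 and fbxa-193, against 42.6% and 9.95% of all genes lower in ergo-1. Of the 74 higher ones, 20 (27%) were also higher there and 10 (13.5%) lower, against 12.8% and 12.9% of all genes higher in ergo-1. fbxa-52, fbxa-24, fbxa-46 (−5.34 ± 0.25 in the second set) and fbxa-61 (−5.63 ± 0.17) were low on the ergo-1 side both times. fbxa-218 was higher both times, with 322, 341 and 306 CPM in the ergo-1 double mutant, against 112, 149 and 123 CPM in the hrde-1 double mutant (1.33 ± 0.13). fbxa-67 was higher both times too, at 4.89 ± 0.12 in the first set and 3.65 ± 0.05 in the second. fbxa-10 and fbxa-110 changed sides. fbxa-110 had 8.57, 12.5 and 9.23 CPM in the ergo-1 double mutant, against 20.1, 37.5 and 17.4 CPM in the hrde-1 double mutant (−1.39 ± 0.25). fbxa-203, so unequal in the first set, had 8.03, 6.87 and 9.69 CPM in the ergo-1 double mutant and 7.16, 3.63 and 5.19 CPM in the hrde-1 double mutant, a difference that was not called. The second-set results on fbxa-110 and fbxa-203 may depend on the scaling, since microRNA counts as the basis raised the median gene, as given above.

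**Figure D5:**
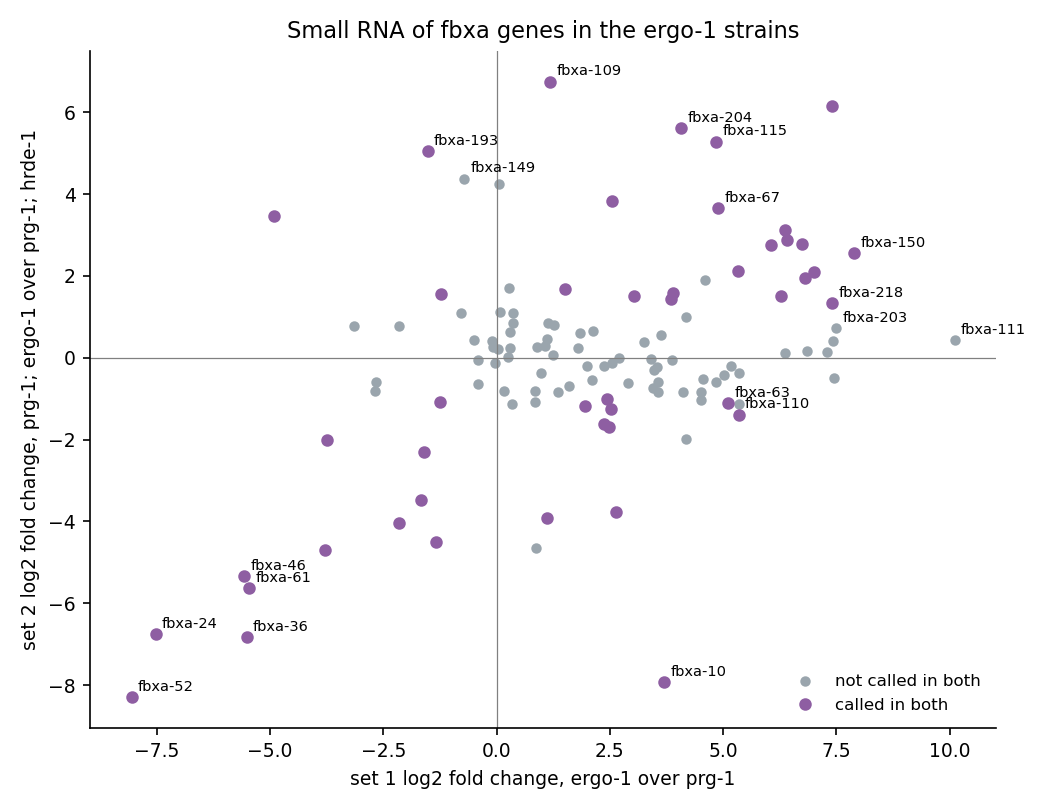
Small RNA log2 fold change for 117 fbxa genes, ergo-1 over prg-1 in the first set (horizontal) and the ergo-1 double mutant over the hrde-1 double mutant in the second (vertical); purple points were called in both. The strain in the denominator differs between the axes, and purple points lie on both sides of 0 on each axis, with fbxa-52 and fbxa-24 at the lower left.

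The mRNA of the ergo-1 double mutant was lower than that of the hrde-1 double mutant for 35 members (23.5%) and higher for 8 (5.37%), shares close to the 24.4% and 4.66% of all genes. The median member stood at −0.52 and the median gene at −0.16. Scaled by library size alone, the median gene stood at −0.47 and 60 members were lower, and upper-quartile scaling also gave 60. fbxa-11 had 2.92, 4.62 and 3.13 CPM in the ergo-1 double mutant, against 15.6, 20.8 and 21.9 CPM in the hrde-1 double mutant (−2.45 ± 0.20, SE; edgeR adjusted p = 1.36e-09). fbxa-72 had 20.9, 27.8 and 21.7 CPM in the ergo-1 double mutant, against 72.3, 102 and 88.8 CPM in the hrde-1 double mutant (−1.90 ± 0.27). fbxa-196 had 1.44, 1.46 and 0.856 CPM in the ergo-1 double mutant, against 7.05, 8.94 and 7.4 CPM in the hrde-1 double mutant (−2.63 ± 0.29). None of these groups overlapped. fbxa-120 went the other way, with 8.94, 11.8 and 10.1 CPM in the ergo-1 double mutant, against 2.71, 3.26 and 3.89 CPM in the hrde-1 double mutant (1.64 ± 0.20). fbxa-181 (1.66 ± 0.28), fbxa-170 (1.61 ± 0.20) and fbxa-95 (1.32 ± 0.25) were also higher, and fbxa-83 was, at 1.07, only with all libraries, since it stood at 0.97 without replicate 2 of the ergo-1 double mutant and at 0.96 without replicate 1 of the hrde-1 double mutant.

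Other markers differed between these 2 strains as well. Sperm genes summed to between 1511 and 1785 CPM in the ergo-1 double mutant and between 2691 and 3764 CPM in the hrde-1 double mutant. Yolk and intestine markers summed to between 29070 and 53960 CPM in the ergo-1 double mutant and between 7039 and 8482 CPM in the hrde-1 double mutant. Their part in the result was not tested. Small RNA and mRNA were compared member by member. Of the 37 members with less small RNA in the ergo-1 double mutant, 30 were tested in mRNA, and 13 of these (43.3%) were lower and none higher, against 48.7% lower and 2.33% higher among all genes with less small RNA. Of the 32 with more small RNA, 24 were tested in mRNA, with 5 (20.8%) lower and 6 (25%) higher, against 25.7% and 12.7% among all genes with more. The small RNA and mRNA counts behind these shares depend on the scaling, as given above. In these strains fbxa-11 had both less small RNA (8.11, 7.22 and 7.03 CPM in the ergo-1 double mutant, against 23.2, 24.1 and 21.6 CPM in the hrde-1 double mutant, −1.62 ± 0.08) and less mRNA, unlike its opposed changes with the mut-16 mutation. The small RNA difference on fbxa-11 may depend on the scaling too. fbxa-67 had more small RNA and less mRNA, with mRNA levels of 5.33, 7.49 and 4.71 CPM in the ergo-1 double mutant, against 17, 23.5 and 19.5 CPM in the hrde-1 double mutant (−1.77 ± 0.21).

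The strain with both deletions was set against each single deletion, and the 2 comparisons share its libraries. Small RNA changed on few members. Against sosi-1, 9 members were lower and 5 higher, and 8.99% of all genes were lower and 0.442% higher. Against eri-6[e-f], 6 were lower and 1 higher, and 0.897% of all genes were lower and 0.312% higher. Under microRNA scaling the counts were 0 lower and 2 higher against sosi-1, and 0 and 0 against eri-6[e-f]. Without replicate 2 of eri-6[e-f] the lower count against it was 3.

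fbxa-61 had 23.2, 20.4 and 21.7 CPM with both deletions, against 5.5, 7.93 and 8.9 CPM in sosi-1 (1.55 ± 0.13, SE; edgeR adjusted p = 2.74e-08) and 49.7, 47.6 and 48 CPM in eri-6[e-f] (−1.15 ± 0.12). It thus lay between the single deletions. fbxa-36 had 6.64, 4.95 and 5.62 CPM with both deletions, against 0.125, 0.68 and 0.456 CPM in sosi-1 (3.89 ± 0.35), and 8.07, 8.49 and 6.74 CPM in eri-6[e-f], where the difference was not called. fbxa-35, in the same run, had 1.33, 1.93 and 1.97 CPM with both deletions, against 0.0833, 0.378 and 0.331 CPM in sosi-1 (2.78 ± 0.57). fbxa-180 was higher against both, with 3.89, 3.34 and 4.33 CPM with both deletions, against 0.749, 0.907 and 1.7 CPM in sosi-1 and 0.792, 0.699 and 0.562 CPM in eri-6[e-f]. fbxa-24 was lower, with 37.2, 37.7 and 36.8 CPM with both deletions, against 87.8, 83.8 and 75 CPM in eri-6[e-f] (−1.14 ± 0.18). fbxa-46 was lower against eri-6[e-f] as well, with 11.7, 12.8 and 14.4 CPM with both deletions, against 35.2, 38.8 and 30 CPM in eri-6[e-f] (−1.42 ± 0.16). fbxa-40 had 14.8, 15.4 and 15.3 CPM with both deletions, against 32.5, 52.7 and 49 CPM in sosi-1 (−1.56 ± 0.27). The calls on fbxa-54, fbxa-195 and fbxa-223 rested on single libraries. That on fbxa-54 against eri-6[e-f] was lost without replicate 1 of the strain with both deletions (edgeR adjusted p = 0.0601) or replicate 2 of eri-6[e-f] (0.0815). That on fbxa-195 against sosi-1 was lost without replicate 2 of the strain with both deletions (edgeR adjusted p = 0.0556) or replicate 3 of sosi-1 (0.0532). That on fbxa-223 against eri-6[e-f] fell below 2-fold without replicate 3 of the strain with both deletions (−0.97) or replicate 2 of eri-6[e-f] (−0.92).

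In mRNA, 33 members (22.1%) were lower and 14 (9.4%) higher with both deletions than in sosi-1, against 24.7% and 17% of all genes. By library size alone, where the median gene stood at −0.75, 63 were lower and 5 higher, and without replicate 1 of sosi-1 the lower count was 16. Against eri-6[e-f], 50 (33.6%) were lower and 5 (3.36%) higher, against 10.4% and 8.72% of all genes, and a fit on these 2 strains alone gave 2 higher. Tissue markers moved here too. Sperm genes summed to between 101.4 and 113.1 CPM with both deletions and between 229.1 and 308.5 CPM in sosi-1. In eri-6[e-f] they were lower than with both deletions, at 39.01 to 98.21 CPM. Yolk and intestine markers summed to between 44540 and 52850 CPM with both deletions, against a range in sosi-1 of 57810 to 72070 CPM and a range in eri-6[e-f] of 76400 to 108300 CPM. Muscle markers summed to between 1556 and 1925 CPM with both deletions and between 3164 and 4613 CPM in eri-6[e-f]. They overlapped those of sosi-1, at 610 to 1689 CPM. Oocyte markers with both deletions, at 4916 to 6264 CPM, lay between the single deletions. These had 6451 to 9299 CPM in sosi-1 and 3267 to 4179 CPM in eri-6[e-f]. Germline markers lay between them as well. Their part in the result was not tested. fbxa-95 had 57.4, 56.1 and 44.7 CPM with both deletions, against 12.5, 14.8 and 17.6 CPM in sosi-1 (1.82 ± 0.25) and 16.9, 11.7 and 27 CPM in eri-6[e-f] (1.51 ± 0.25). It was higher than in every library of either single deletion. The abundant fbxa-206, fbxa-101 and fbxa-210 were higher than in sosi-1. fbxa-206 had 80.7, 77.8 and 99.1 CPM with both deletions, against 30.7, 35 and 39.9 CPM in sosi-1 (1.29 ± 0.20). fbxa-101 had 96.3, 95.3 and 111 CPM with both deletions, against 36.9, 45.6 and 47.3 CPM in sosi-1 (1.22 ± 0.19). fbxa-210 had 92.8, 92.8 and 120 CPM with both deletions, against 42.3, 47 and 56.5 CPM in sosi-1 (1.07 ± 0.19). With the mut-16 mutation added to both deletions, fbxa-206 and fbxa-101 were lower by 1.18 and 1.21 on the log2 scale, while fbxa-210 missed 2-fold. fbxa-197 (1.76 ± 0.23) and fbxa-108 (1.47 ± 0.21) were higher than in sosi-1 too.

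fbxa-180 mRNA was at or near 0 in some strains and clearly present in others. It had 1.89, 1.64 and 2.23 CPM, 154 counts in all, in sosi-1 with the mut-16 mutation and no count in sosi-1, so it was at least 48.9-fold higher with the mut-16 mutation there. It had 1.83, 2.42 and 2.7 CPM in both deletions with the mut-16 mutation, against 0.568, 0.719 and 0.605 CPM in both deletions without it (1.89 ± 0.25). In eri-6[e-f] animals it had no count with the mut-16 mutation and 1 count without it. With both deletions it was at least 15.9-fold higher than in sosi-1.

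Lower mRNA with both deletions was led, against sosi-1, by fbxa-166, which had 0.117, 0.139 and 0.121 CPM with both deletions, against 1.98, 1.9 and 0.977 CPM in sosi-1 (−3.67 ± 0.45) and 0.653, 0.5 and 0.403 CPM in eri-6[e-f] (−2.04 ± 0.59). It rests on 16 counts with both deletions. fbxa-21 had 0.51, 0.464 and 0.242 CPM with both deletions, against 6.14, 1.7 and 1.52 CPM in sosi-1 (−2.84) and 6.08, 4.6 and 1.69 CPM in eri-6[e-f] (−3.22). fbxa-189 had 0.568, 0.394 and 1.15 CPM with both deletions, against 7.59, 1.98 and 3.18 CPM in sosi-1 (−2.77) and 6.8, 4.6 and 3.47 CPM in eri-6[e-f] (−2.99). fbxa-182 had 1.56, 2 and 2.24 CPM with both deletions, against 12.5, 5.54 and 6.65 CPM in sosi-1 (−2.13 ± 0.29) and 12, 9.81 and 5.08 CPM in eri-6[e-f] (−2.24 ± 0.30). In each of these 4 genes every library with both deletions lay below every library of the single deletions. Against eri-6[e-f], fbxa-162 stood at −3.48, fbxa-87 at −3.38 and fbxa-30 at −3.17.

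A few F-box A proteins have a described partner. FBXA-75 and FBXA-158 act with the cullin CUL-6 and the adaptors SKR-3, SKR-4 and SKR-5 in a ubiquitin ligase of the intracellular pathogen response. fbxa-158 mRNA was 0.0874, 0.0464 and 0.303 CPM with both deletions, against 2.28, 1.24 and 0.489 CPM in sosi-1 (−3.65 ± 0.53, SE; edgeR adjusted p = 3.19e-06). It was lower than in eri-6[e-f] as well (−2.19), a call lost without replicate 1 of eri-6[e-f] (edgeR adjusted p = 0.21) or without replicate 1 (0.072) or 2 (0.0665) of the strain with both deletions. cul-6 mRNA was 0.845, 0.557 and 0.787 CPM with both deletions, against 6.44, 2.32 and 2.88 CPM in sosi-1 (−2.42 ± 0.37), and 2.25 ± 0.36 higher on the log2 scale when the mut-16 mutation was added to both deletions. skr-5 mRNA stood at −3.49 ± 0.51 against sosi-1 and at 1.60 when the mut-16 mutation was added. The other two adaptors were not called in either comparison, at less than 2-fold. skr-3 stood at −0.15 ± 0.28 against sosi-1 and at −0.64 ± 0.28 when the mutation was added, and skr-4 at −0.48 ± 0.25 and −0.68 ± 0.25 in the same order. In the other backgrounds these means were lower with the mutation, except that of cul-6 in sosi-1 animals, which was slightly higher. In eri-6[e-f] animals mean cul-6 mRNA was 2.35 CPM with the mutation and 4.39 CPM without it, and skr-5 mRNA 0.648 and 1.11 CPM. In sosi-1 animals the means were 4.54 and 3.88 CPM for cul-6, and 1.3 and 2.31 CPM for skr-5. fbxa-75 was too low to test in either assay, and fbxa-158 small RNA reached at most 0.621 CPM and was not tested. Of the 25 tested SCF subunits and adaptors, 15 were higher and 3 lower in mRNA with both deletions than in sosi-1 (median 1.07), against 17% and 24.7% of all genes, in the comparison where library size alone put the median gene at −0.75. Of the same 25, 3 were higher and 11 lower when the mut-16 mutation was added to both deletions (median −0.68), against 28.1% and 22.1% of all genes.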

How the data were processed

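The deposited gene tables hold expected counts per gene name, not whole numbers throughout: 60.3% of small RNA values in the first set, 41.6% in the second and 89.4% of mRNA values were whole (tolerance 0.001). The authors used cutadapt, HISAT2 and Salmon, per the submitters' processing notes; versions, genome build and annotation were not stated in the labels read. Entries with the same name were summed (8 members) and expected counts rounded. Names matched the RefSeq gene table for 45696 of 46003 names in the second set and 45602 of 45904 in the first.

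Counts were tested with edgeR 4.0.16 (R 4.3.3; filterByExpr, TMM, quasi-likelihood test, Benjamini-Hochberg) in 3 fits, each over all strains of an assay and set: 11746, 15380 and 15376 genes. SE is the log2 fold change divided by the square root of F. Intervals and floors cover counting error only. The members and lists were chosen with earlier results of these data known. Genes named are those with the largest called changes in each comparison, the 5 most abundant, runs of neighbours, and members with a described partner. Members called lower in small RNA and higher in mRNA with the mut-16 mutation were named for that pattern. On simulated data for ergo-1 against prg-1 (9881 genes), 93 of 99 genes changed by 1.5 on the log2 scale and 99 of 100 changed by 2 were called, with 3 false calls. The like simulation of small RNA in the 2 double mutants gave 6 false calls. Few genes were changed there, up and down alike, so the scaling was not tested. DESeq2 1.42.0, other scalings, no filter, single libraries left out and a replicate block were alternatives. Replicate 3 of the small RNA of the ergo-1 double mutant carries an mRNA selection label but a small RNA title; it was kept (correlation with its replicates at least 0.981). No 2 replicates agreed within sampling noise. The first set's labels name 2 growth regimes without assigning them to libraries.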

Additional observations from a re-analysis of the deposited data

Results flagged for a closer look

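The mut-16 effect on small RNA differed between the 3 backgrounds, by edgeR's test of the interaction, for 15 fbxa genes, and for 1 under microRNA scaling. Among those named, the largest and smallest log2 effects were 5.11 apart for fbxa-49, 4.25 for fbxa-46, 3.72 for fbxa-36, 3.06 for fbxa-61 and 2.59 for fbxa-11. fbxa-49 had no count with the mut-16 mutation in eri-6[e-f] animals, where it was at least 44.0-fold lower, so its spread depends on the prior count. The call on fbxa-36 was lost when any 1 replicate of sosi-1 with the mut-16 mutation was left out (edgeR adjusted p = 0.0629 to 0.0929).

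The mRNA effect differed for 71 members. The spread was 11.85 for fbxa-180, which had no count in sosi-1 and so takes this value from the prior count, 5.34 for fbxa-164, 4.69 for fbxa-187, 3.5 for fbxa-162, 3.39 for fbxa-199 and 2.4 for fbxa-182.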

How the results depend on the processing

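The 32 counts of called members kept within 1.5 times their value with the DESeq2 test or with DESeq2 size factors, and 133 single-gene values kept direction and call. Same-numbered replicates of different strains did not deviate together in the median. Their median correlations were −0.0519, 0.00383 and −0.026 over the 3 fits, against 0.0281, −1.57e-05 and 0.01 for differently numbered ones. Single correlations passed 0.1 in 0 of 3, 4 of 84 and 22 of 84 pairs, and reached 0.526 in mRNA. That share was not counted for differently numbered libraries, so whether some libraries pair by number was not tested. With a replicate block, no count or single-gene call changed side, with 74 members higher and 19 lower in ergo-1 against prg-1. Scaling to microRNA counts, which lowered the median gene with the mut-16 mutation, gave 0 members higher with the mut-16 mutation in eri-6[e-f], 0 in sosi-1, 2 with both deletions and 2 on average, 1 rather than 15 small RNA interactions, and took fbxa-108 to 0.00 and fbxa-135 to −0.12. It also gave 53 higher and 14 lower in the ergo-1 double mutant, 2 higher and 0 lower with both deletions against sosi-1, and 0 and 0 against eri-6[e-f]. Upper-quartile scaling gave 8 higher in small RNA with the mut-16 mutation in eri-6[e-f], 2 lower in mRNA with the mut-16 mutation in sosi-1, and 60 lower in mRNA of the ergo-1 double mutant. Library size alone gave mRNA counts of 47 higher and 9 lower with the mut-16 mutation on both deletions, 2 lower on average, 60 lower in the ergo-1 double mutant, and 5 higher and 63 lower with both deletions against sosi-1. Fits on the groups compared alone gave 7 higher in mRNA and 3 higher in small RNA with the mut-16 mutation in eri-6[e-f], and 2 higher in mRNA with both deletions against eri-6[e-f]. Without a filter there were 23 small RNA interactions. Leaving out single libraries moved the mRNA lower counts with the mut-16 mutation over 29 to 63 in eri-6[e-f], 3 to 8 in sosi-1 and 14 to 27 with both deletions, and that against sosi-1 over 16 to 43. In small RNA it moved the higher count with the mut-16 mutation in sosi-1 over 5 to 8 and the lower count against eri-6[e-f] over 3 to 6, while between 137 and 142 members were lower on average with the mut-16 mutation. Other such counts stayed within 1.5 times. The cause of these shifts was not tested. Members under about 1 CPM rest on few counts, and 51 in small RNA and 73 in mRNA were too low to test.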
